A study of Mus musculus with 16 samples.

Results

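Accessible chromatin was examined around 8 genes of the type I interferon axis, namely the interferon regulatory factor genes Irf1, Irf3, Irf5, Irf7 and Irf9, the signal transducer genes Stat2 and Stat3, and Ifnb1, which encodes interferon beta. Overlapping ATAC-seq peaks of all groups were merged into regions, and a region belonged to a gene when its midpoint was no more than 100 kb from the gene's transcription start site (TSS). This choice used position only. It gave 91 of 37648 regions, and none lay near more than 1 of the 8 genes. The farthest midpoint inside a window was at 98506 bp (Irf7) and the nearest outside at 100642 bp (Irf9).

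ATAC-seq marks open DNA by insertion of the Tn5 transposase. The cells were bone marrow-derived macrophages (BMDMs) of C57BL/6J mice, female and aged 8 to 10 weeks per the study's methods, grown in L-cell conditioned medium and deprived of serum for a day. On day 8 they received DMSO (Veh) or T0901317 (T0, 500 nM), a synthetic agonist of the liver X receptor (LXR), for 3 h, and the LPS and T0-LPS groups then received lipopolysaccharide, a TLR4 ligand, at 10 ng/mL for a further 2 h. A comparison of a group with LPS against one without it therefore also compared culture times. Each group held 4 libraries of 50000 cells, but its peaks were called on the 4 libraries together and kept only at macrophage enhancers. There was 1 list per group, no replicate value and no test, and the read depth behind each list was unknown. The Veh list held 35551 peaks, the T0 list 29839, the LPS list 33181 and the T0-LPS list 31085. Peaks lay within 1 kb of the TSS of all 8 macrophage marker genes in every list, of none of 3 T cell genes, and of 1 of 3 B cell and 1 of 3 neutrophil genes. The epithelial gene Epcam had such a peak in the LPS list alone.

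Interferon beta is made when TLR4 signals through TRIF and the kinases TBK1 and IKK-epsilon, which activate IRF3. The secreted protein acts on its receptor to bring STAT2 and IRF9 together in the ISGF3 complex, which binds the interferon-stimulated response element (ISRE) and raises IRF7, an amplifier of interferon production. IRF1 and IRF5 are further inducers of inflammatory and antiviral genes in macrophages, and STAT3 carries signals of IL-6 and IL-10, the latter anti-inflammatory.

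Sequences of 6 regions are shown first, chosen as promoters that were open in some or all lists and as upstream regions that differed in presence, each read 5′ to 3′ on the strand of its gene in GRCm38. The promoters of Ifnb1 and Irf5 had a peak in the LPS list alone, the Irf1 upstream region in both lists with LPS, and the Irf1 promoter in every list. The Stat2 site lies in the promoter region that ranked highest of the 8 genes in Veh and LPS, and the Stat3 upstream region had a peak in every list but T0. Capitals mark matches to an ISRE (2 copies of GAAA separated by any 2 bases), the STAT site GAS (TTCNNNGAA) or the NF-kB consensus, on either strand.
Ifnb1 promoter (chr4:88522860-88522979, minus strand): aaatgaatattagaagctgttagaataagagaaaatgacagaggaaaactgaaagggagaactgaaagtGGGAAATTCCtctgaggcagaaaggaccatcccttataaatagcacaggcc
Irf5 promoter (chr6:29526453-29526624, plus strand): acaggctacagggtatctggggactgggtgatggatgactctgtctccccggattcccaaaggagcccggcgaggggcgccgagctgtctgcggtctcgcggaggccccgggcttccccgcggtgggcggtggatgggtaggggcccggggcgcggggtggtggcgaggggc
Irf1 upstream region (chr11:53762947-53763146, plus strand): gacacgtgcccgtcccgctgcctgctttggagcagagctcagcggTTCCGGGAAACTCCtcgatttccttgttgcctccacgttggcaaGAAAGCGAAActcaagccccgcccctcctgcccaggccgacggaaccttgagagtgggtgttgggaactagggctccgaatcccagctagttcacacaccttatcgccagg
Irf1 promoter (chr11:53769714-53770013, plus strand): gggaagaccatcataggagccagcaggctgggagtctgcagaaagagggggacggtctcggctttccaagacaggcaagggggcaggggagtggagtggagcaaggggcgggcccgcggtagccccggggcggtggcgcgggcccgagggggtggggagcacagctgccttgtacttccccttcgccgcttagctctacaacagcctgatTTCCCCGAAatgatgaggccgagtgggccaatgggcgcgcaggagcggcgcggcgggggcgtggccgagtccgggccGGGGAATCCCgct
Stat2 promoter site (chr10:128270266-128270295, plus strand): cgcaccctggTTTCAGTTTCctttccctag
Stat3 upstream region (chr11:100994773-100994972, minus strand): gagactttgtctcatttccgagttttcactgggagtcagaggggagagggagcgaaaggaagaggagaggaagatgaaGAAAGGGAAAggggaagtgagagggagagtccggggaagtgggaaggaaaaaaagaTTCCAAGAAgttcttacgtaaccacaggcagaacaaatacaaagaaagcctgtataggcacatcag

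These stretches were searched for 6 motifs. The Ifnb1 stretch held 1 match, to NF-kB at bases 70 to 79 counted from its first base, and the Irf5 stretch, of which 72.7% of bases were G or C, held none. The Irf1 upstream region held a GAS match at bases 46 to 54, an NF-kB match at bases 50 to 59, which shares 5 bases with it, and an ISRE match at bases 90 to 99. In the Irf1 promoter, GAS matched at bases 211 to 219 and NF-kB at bases 288 to 297. The Stat3 upstream region held an ISRE match at bases 79 to 88 and a GAS match at bases 135 to 143. A match is a description of the letters and shows no binding.

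Each peak carried the score of the authors' peak caller, which was used only as a percentile within its own list, since it grows with depth. A percentile of 100 is the top of a list. Distances below run from the TSS to the region's midpoint and are negative upstream. A region with a peak in Veh and none in T0 was called T0-closed, and one with a peak in T0 and none in Veh T0-opened. LPS-closed and LPS-opened regions were defined from Veh and LPS, and T0-closed-in-LPS and T0-opened-in-LPS regions from LPS and T0-LPS, in the same way. Where peak numbers were missing between the flanking peaks of a list, a peak removed by the enhancer filter could lie there, and the region was said to have room.

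Irf3 and Irf9 had 14 regions each, Stat2 and Stat3 13, Irf7 11, Irf1 and Ifnb1 9 and Irf5 8, against a median of 5 (interquartile range 1 to 10) over 21938 protein-coding genes. A peak was present in all 4 lists in 69 of the 91 regions (75.8%), against 70.2% of all regions, from 4 of 9 at Irf1 and 6 of 13 at Stat3 to all 14 at Irf9. By annotation, 40 regions were intergenic, 23 intronic, 23 in an untranslated region and 5 in another part of an exon. The gene itself owned the nearest coding TSS at 17 of them, so most regions lay closer to a neighbour. In 51 regions (56.0%) the midpoint was within 1 kb of some coding TSS, against 29.7% of all regions. The map of all regions by distance shows the strong regions shared by the lists and the weak ones present in some of them.

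**Figure D1:**
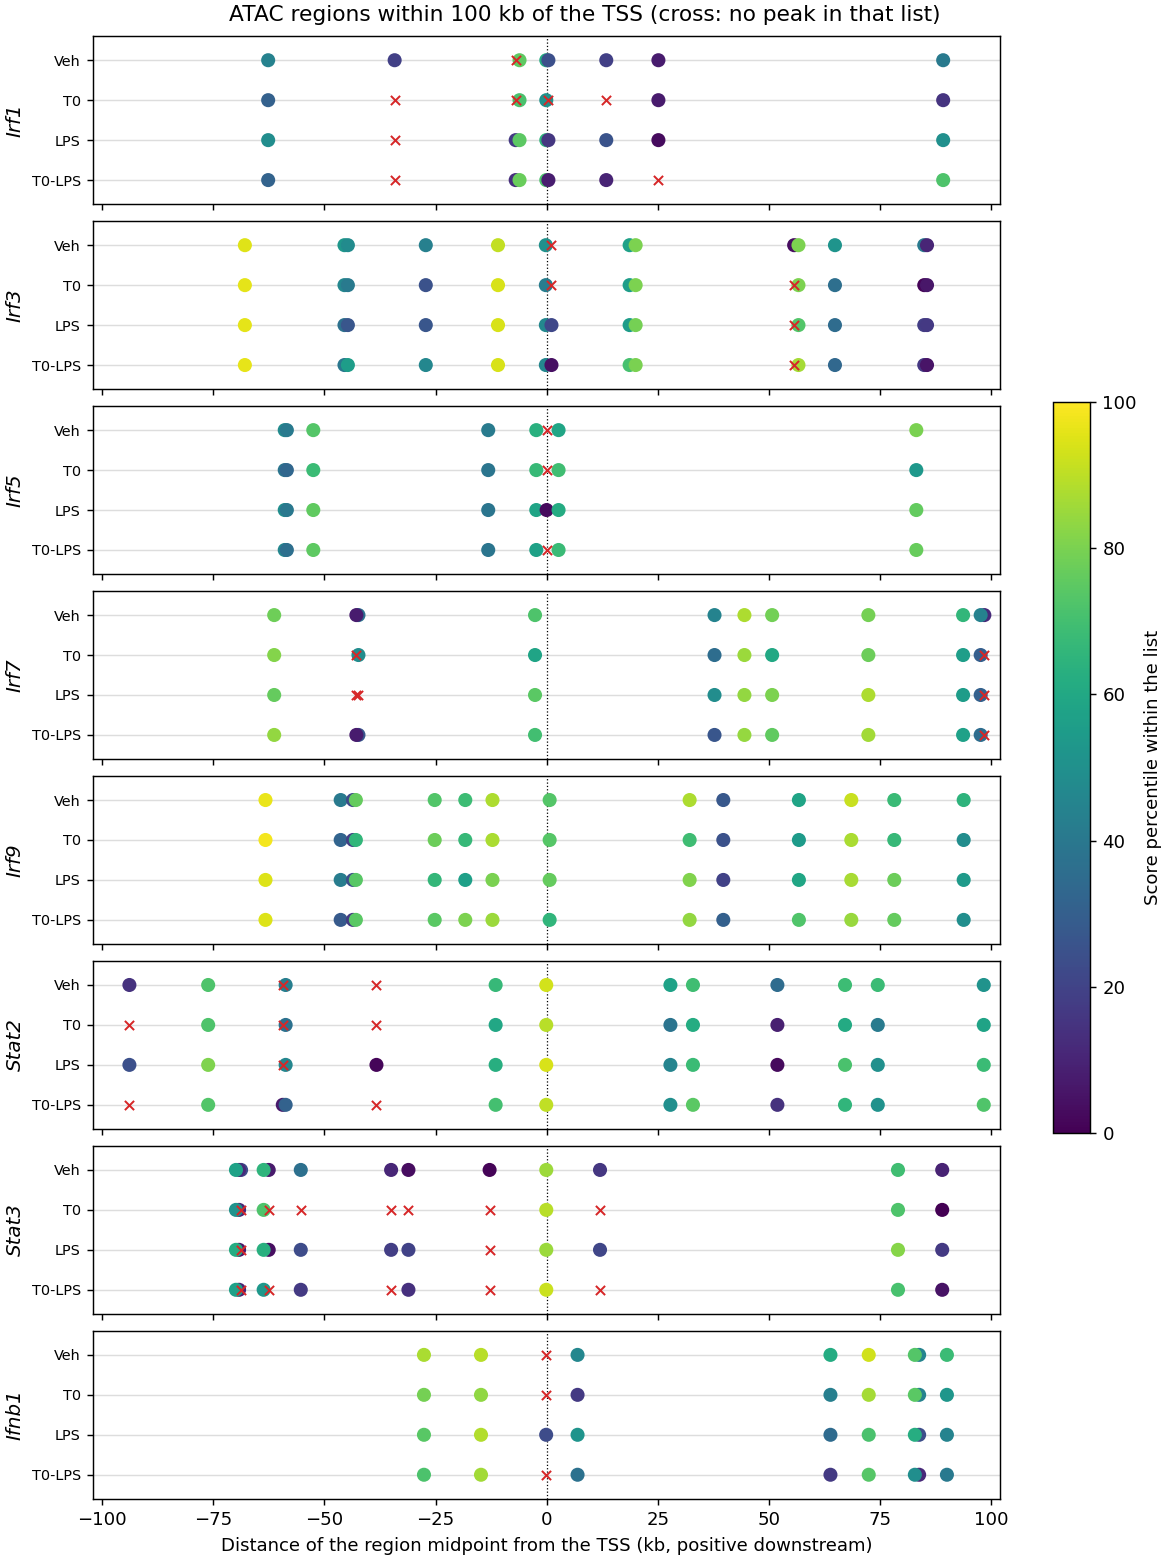
Regions around each gene in each list. The horizontal axis gives the distance of the region's midpoint from the TSS in kb (positive downstream), rows are the 4 pooled lists, colour is the score percentile within the list and a red cross marks a list without a peak. In these full lists, of unequal length, crosses were most frequent at Stat3, where 7 of 13 regions had no T0 peak. Of all regions with a Veh peak, 18.1% had no T0 peak, and 55.6% of those in the lowest 3 deciles of Veh percentile. Crosses were absent at Irf9, where all 14 regions were present throughout.

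In every list, 5 of the genes had a region within 1 kb of the TSS (Irf1, Irf3, Irf9, Stat2 and Stat3). With LPS alone 7 of the 8 did, as Irf5 and Ifnb1 joined, and with T0-LPS again 5. Among protein-coding genes the share with such a region was 48.8% with Veh, 45.6% with T0, 48.0% with LPS and 47.1% with T0-LPS, so that the LPS list was no higher than Veh over all genes.

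The Ifnb1 promoter was open in the LPS list alone. The gene (chr4:88522025-88522774, minus strand) has a GENCODE record that starts at its first coding base, and its promoter region (chr4:88522781-88522979, midpoint at -106 bp) held an LPS peak (percentile 22.8, score 166) and none in Veh, T0 or T0-LPS. No room was left in the Veh and T0 numbering, whereas 1 peak number was missing between the flanking T0-LPS peaks, so the authors' filter may have removed a T0-LPS peak in that interval. The promoter therefore differed in presence between LPS and Veh without a gap in the record, and less certainly between LPS and T0-LPS. In the decile of LPS percentile of this weak peak, 9.19% of all regions were LPS-opened and 12.2% T0-closed-in-LPS. Signal just under the calling threshold in the other lists was not tested. Fewer open cells and less open cells cannot be told apart in these bulk libraries either.

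The other 8 regions of the Ifnb1 window were open in every list. Of these, 5 lay between +63871 and +90081 bp, towards and inside Hacd4, a gene of fatty acid elongation, and all 5 stood lower in LPS than in Veh by at least 10 percentile points, as 25.2% of all regions with both peaks did. The region at +72487 bp was at percentile 92.8 (Veh), 86.6 (T0), 71.3 (LPS) and 73.7 (T0-LPS). The region at +63871 bp stood at 61.5, 42.8, 34.7 and 17.1 in the same order. Values at +83831 bp, 15 bp from the Hacd4 TSS, were 45.1, 43.8, 23.7 and 11.5. At +82864 bp they were 73.2, 74.6, 62.3 and 48.8, and at +90081 bp 68.0, 52.5, 44.6 and 40.2. In 4 of 5 the T0-LPS percentile was below that of LPS, as it was in 60.7% of all regions with both peaks.

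Nearer to Ifnb1, the region at +6959 bp was at percentile 46.2 with Veh, 17.1 with T0, 52.0 with LPS and 37.4 with T0-LPS, and held an ISRE match. It was lower with T0 both without and with LPS. Upstream, the region at -14773 bp was at 89.3, 83.5, 88.4 and 86.1, and the one at -27609 bp, also with an ISRE match, at 87.4, 79.1, 74.0 and 71.7. Over the 8 regions with a peak in both lists, the median difference of LPS from Veh was -17.4 points, the lowest of the 8 genes. Taken in the same way, at Irf3 it was -5.46 points, and at Irf1, Stat2 and Stat3 the median was above 0, at 3.64, 0.713 and 3.91 points.

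Irf5 (chr6:29526625-29541871, plus strand), whose product acts downstream of MyD88, had a region over its start (chr6:29526453-29526803, midpoint at 3 bp) in the LPS list alone, with a score of 79. At percentile 2.51 this was one of the weakest LPS peaks, and the other lists left no room for a removed peak. The stronger regions on either side were in every list. At -2330 bp the percentile was 63.6 (Veh), 67.4 (T0), 58.3 (LPS) and 57.2 (T0-LPS), and at +2685 bp, over an untranslated region of Irf5, it was 59.0, 69.3, 60.9 and 67.6. The +2685 bp region was one of 2 of all 91 that stood at least 10 points higher in T0 than in Veh, as 2.01% of all regions with both peaks did. At the start of Tnpo3, a nuclear import receptor gene 83194 bp downstream, the values were 79.7, 53.3, 75.9 and 76.6.

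Irf1 (chr11:53770014-53778374, plus strand), an NF-kB-inducible gene, had an LPS-opened region upstream. The region at chr11:53762886-53763207 (-6968 bp) held an LPS peak at percentile 16.5 (score 140) and a T0-LPS peak at 13.5 (score 119), and no Veh or T0 peak, with no room in either. Its sequence, with ISRE, GAS and NF-kB matches, is printed above. A neighbour at -6099 bp was open throughout, at 75.2, 71.3, 75.0 and 77.0. The promoter region (-80 bp) was at percentile 61.4 with Veh, 50.8 with T0, 65.0 with LPS and 71.8 with T0-LPS, lowest in T0 and highest in T0-LPS.

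Weak regions of the Irf1 window were missing from the T0 list. In an intron (+397 bp) the percentile was 24.4 in Veh, 16.0 in LPS and 8.03 in T0-LPS, and no T0 peak was called. At +13420 bp, in the long non-coding gene Gm12216, it was 18.9, 25.8 and 9.86 in the same lists, again without a T0 peak. The region at -34207 bp, whose nearest coding start is that of Il5, was in Veh alone, at 18.9. No room was left in T0 at any of these 3. The T0-closed-in-LPS region of this gene, at +25154 bp, stood at only 7.53 in Veh, 7.04 in T0 and 3.06 in LPS, and 3 peak numbers were missing there in T0-LPS. The Gm12216 start at +89239 bp, with ISRE and GAS matches, was at 40.8 (Veh), 15.1 (T0), 50.0 (LPS) and 72.1 (T0-LPS). The Rad50 start at -62669 bp was at 44.4, 30.6, 48.6 and 31.6.

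At Irf3 (chr7:44997648-45002848, plus strand), which encodes the factor that TBK1 phosphorylates to start Ifnb1 transcription, the promoter region (-181 bp) was present throughout, at percentile 50.1 with Veh, 42.1 with T0, 46.5 with LPS and 46.4 with T0-LPS. A second region inside the gene (chr7:44998621-44998852, +1088 bp) had an LPS peak at percentile 21.9 (score 162) and a T0-LPS peak at 3.98 (score 83), and no Veh or T0 peak or room for one. It lies in an Irf3 exon, 24 bp from the start of the overlapping gene Bcl2l12, so the data do not tell which gene it belongs to. Farther away, a weak region at +55699 bp was in Veh alone, at 3.23. The steepest difference of T0 from Veh among the 91 regions was at +84976 bp, where the percentile was 40.7 (Veh), 0.942 (T0), 18.3 (LPS) and 16.2 (T0-LPS). Ranked only among regions present in all 4 lists, it was -21.9 points. The steepest was then the Irf5 region at +83194 bp, at -25.1 points. In an intron of Tsks at -44729 bp it was 47.8, 40.7, 26.9 and 55.1, the largest excess of T0-LPS over LPS (28.2 points). An exon of Cpt1c at -27197 bp was at 43.1, 25.0, 26.9 and 46.2.

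Irf7 (chr7:141262706-141266481, minus strand) had no region within 1 kb of its TSS in any list. The nearest, at -2614 bp in Cdhr5 (chr7:141268873-141269318), was open throughout, at 72.1 with Veh, 58.4 with T0, 74.4 with LPS and 69.9 with T0-LPS. A pair of neighbouring regions in an intron of Deaf1 differed in presence. The one at -42348 bp was at 36.5 in Veh, 48.3 in T0 and 26.9 in T0-LPS, with no LPS peak and no room for one. Its T0 value was 11.8 points above Veh, the largest such excess among the 91 regions by percentile in the full lists. The one at -42819 bp had Veh and T0-LPS peaks only, at 7.53 and 7.63. A region at +98506 bp in Rnh1, at the edge of the window, was in Veh alone, at 11.8. The start of Phrf1 at +37782 bp was at 44.7, 35.4, 48.6 and 26.9, the largest deficit of T0-LPS against LPS among the 91 regions, at -21.7 points.

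Irf9 (chr14:55603571-55610030, plus strand) and Stat2 (chr10:128270559-128292849, plus strand) encode the partners in ISGF3. All 14 Irf9 regions were in every list, the only gene of the 8 for which this held. Its intronic region at +676 bp was at percentile 73.4 (Veh), 73.8 (T0), 76.3 (LPS) and 65.2 (T0-LPS). The window includes the starts of Psme1 and Psme2, subunits of the proteasome activator PA28, at -25193 bp (72.8, 77.4, 66.1 and 74.2) and -12189 bp (87.5, 87.4, 80.0 and 85.1). The largest difference at Irf9 was at the start of Emc9 (-18310 bp), at percentile 56.3 in LPS but 80.2 in T0-LPS.

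The Stat2 promoter region (chr10:128270169-128270776, -87 bp) was the highest-ranked of those nearest to each TSS in Veh and LPS, at 93.3 with Veh, 89.3 with T0, 94.0 with LPS and 90.5 with T0-LPS. Its ISRE match lies in the site printed above. Of the weak regions, 3 in the window differed in presence. At -93898 bp in Rbms2 there was a Veh peak at 14.2 and an LPS peak at 24.6 and none with T0 in either state, with no room. At -38298 bp in Timeless there was an LPS peak alone, at 1.28, and at -59383 bp in Spryd4 a T0-LPS peak alone, at 6.84. The start of Il23a, a subunit of the cytokine IL-23, at +27856 bp was present throughout, at 57.8, 38.3, 45.2 and 49.2, highest in Veh. At the start of Cnpy2 (+51932 bp) the percentile was 35.1 (Veh), 8.73 (T0), 2.51 (LPS) and 14.3 (T0-LPS), the largest deficit of LPS against Veh (-32.6 points). The start of Coq10a (+98373 bp) had the largest excess of LPS over Veh, at 51.2 in Veh and 68.2 in LPS.

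Stat3 (chr11:100885098-100939540, minus strand) had the most regions without a T0 peak in the full lists. Its promoter region (chr11:100939277-100939963, -80 bp) was strong throughout, at percentile 85.4 with Veh, 89.4 with T0, 84.8 with LPS and 91.8 with T0-LPS, somewhat higher in both lists with T0. All 13 regions had a Veh peak, and 7 were T0-closed, against 18.1% of all regions with a Veh peak, with no room in T0 at any of the 7. Of these 7, 5 had an LPS peak, against 48.2% of all T0-closed regions, and 3 of those 5 had none in T0-LPS, against 38.9%. The 7 were weak in Veh, from 0.813 at -12837 bp to 36.5 at -55332 bp. The others were at 3.13 (-31102 bp, the start of Cavin1), 6.89 (-62546 bp), 10.8 (-35002 bp), 15.8 (+12012 bp, a Stat3 intron) and 23.0 (-68768 bp). Over all regions, 80.6%, 58.1%, 28.8% and 9.52% were T0-closed in deciles 1 (the lowest) to 4 of Veh percentile. The Stat3 count was not compared with that of regions of like strength. The T0-closed regions of Irf1 stood at 18.9, 18.9 and 24.4 in Veh. The full Veh list was the longer one, with 35551 peaks against 29839 in T0. With lists of equal length, T0-closed regions over all the genes examined went from 14 of 85 to 5 of 72. Whether Stat3 kept the most at equal length was not tested.

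The Stat3 region at -55332 bp (chr11:100994722-100995022) was the strongest T0-closed region of the 8 genes, and the single one with a Veh score of at least 200. Its score was 270 in Veh, 166 in LPS and 133 in T0-LPS, at percentiles 36.5, 22.8 and 17.1. In its decile of Veh percentile, 9.52% of all regions were T0-closed. It lies between Stat3 and Atp6v0a1, at -14580 bp from the start of the latter, and its sequence is printed above. The 6 Stat3 regions present throughout had a median difference of T0 from Veh of 1.14 points, the highest of the 8 genes. Stat5a and Stat5b gave 1 and the same median, -12.4 points over 6 regions. Of the 11 Stat5a regions 5 were T0-closed, and of the 10 Stat5b regions 4. Their windows share 5 regions with that of Stat3, so neither medians nor counts are from separate sets of regions.

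**Figure D2:**
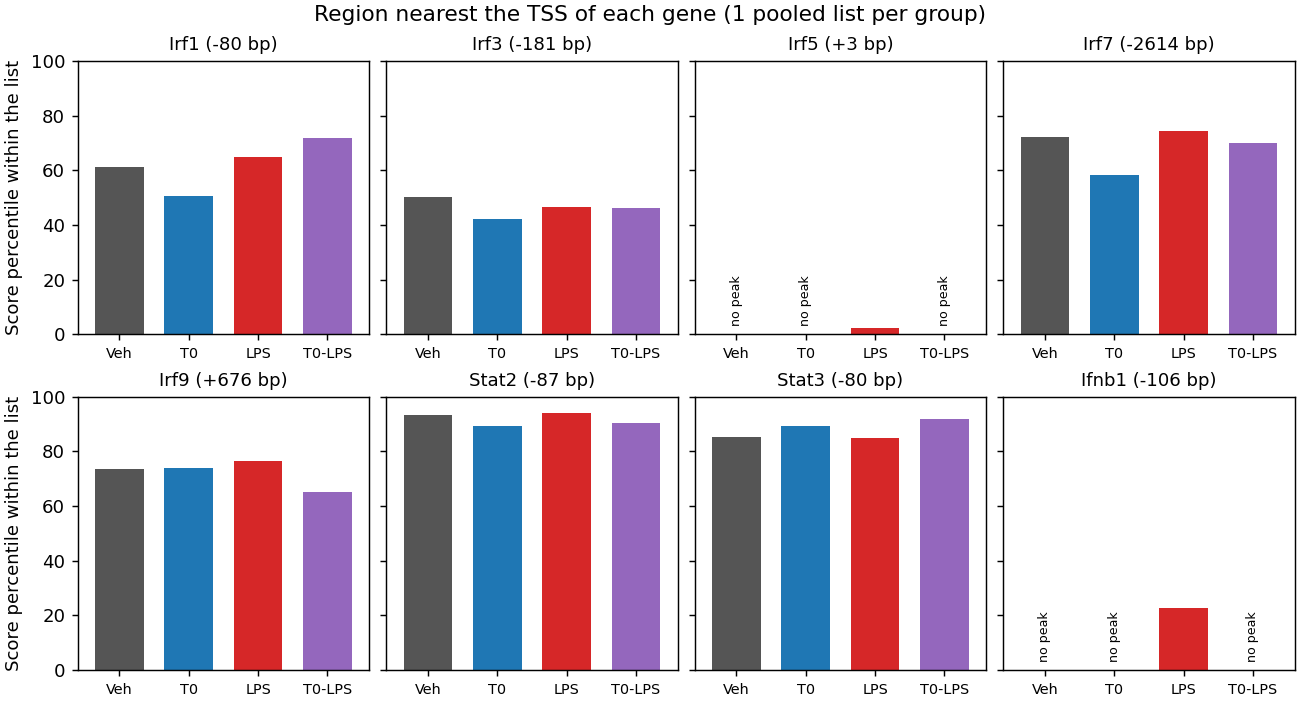
Score percentile (vertical axis, 0 to 100) of the region nearest the TSS of each gene in the 4 pooled lists, with its distance in the panel title; there is 1 value per list and no error bar. Irf5 and Ifnb1 had a value in LPS alone, at 2.51 and 22.8, whereas Stat2 stayed between 89.3 and 94.0 and Stat3 between 84.8 and 91.8.

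Counted over the 8 genes, T0 was set against Veh to ask where chromatin closed or opened upon LXR activation. T0-closed were 14 of 85 regions with a Veh peak (16.5%, Wilson 95% interval 10.1 to 25.8%, counting error only), against a background of 18.1% of all regions. T0-opened were 0 of 71, which allows a share of up to 4.23% (3 counts of 71), against 0.729%, although lists of equal length gave 4 T0-opened regions and a reciprocal overlap of 50% gave 5. Both shares were near the background. The closed regions were weak, with a median Veh percentile of 13.0 against 11.8 for all T0-closed regions. Among the regions in the lowest 3 deciles of Veh percentile, 13 of 19 were T0-closed, against 55.6% of all such regions. By position, 3 of 46 Veh regions within 1 kb of a coding TSS were T0-closed (6.52%, against 11.4% of all such regions) and 11 of 39 farther away (28.2%, against 21.0%).

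With LPS against Veh, 7 of 85 regions were LPS-closed (8.24%, interval 4.05 to 16.0%), against 13.0% of all regions, and 5 of 83 were LPS-opened (6.02%, interval 2.60 to 13.3%), against 6.14%. The 5 LPS-opened regions were spread over Irf1, Irf3, Irf5, Stat2 and Ifnb1, 1 at each. All 5 were without a T0 peak, which 84 of all 2002 LPS-opened regions had, and 3 of them (Irf5, Stat2 and Ifnb1) were without a T0-LPS peak, as were 47.0% of all LPS-opened regions. This count and the LPS-opened call share the LPS list.

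With T0-LPS against LPS, 8 of 83 regions were T0-closed-in-LPS (9.64%, interval 4.97 to 17.9%), against 9.97%, and 3 of 78 were T0-opened-in-LPS (3.85%, interval 1.32 to 10.7%), against 3.37%. The 8 were 3 at Stat3, 2 at Stat2 and 1 each at Irf1, Irf5 and Ifnb1, and the 3 were 2 at Irf7 and 1 at Stat2. Room for a removed T0-LPS peak was left at 2 of the 8, the regions of Irf1 (+25154 bp) and Ifnb1 (-106 bp). Against T0 alone, T0-LPS lacked a peak in 1 of 71 regions (1.41%, against 7.70%) and had one in 8 of 78 without a T0 peak (10.3%, against 11.7%).

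**Figure D3:**
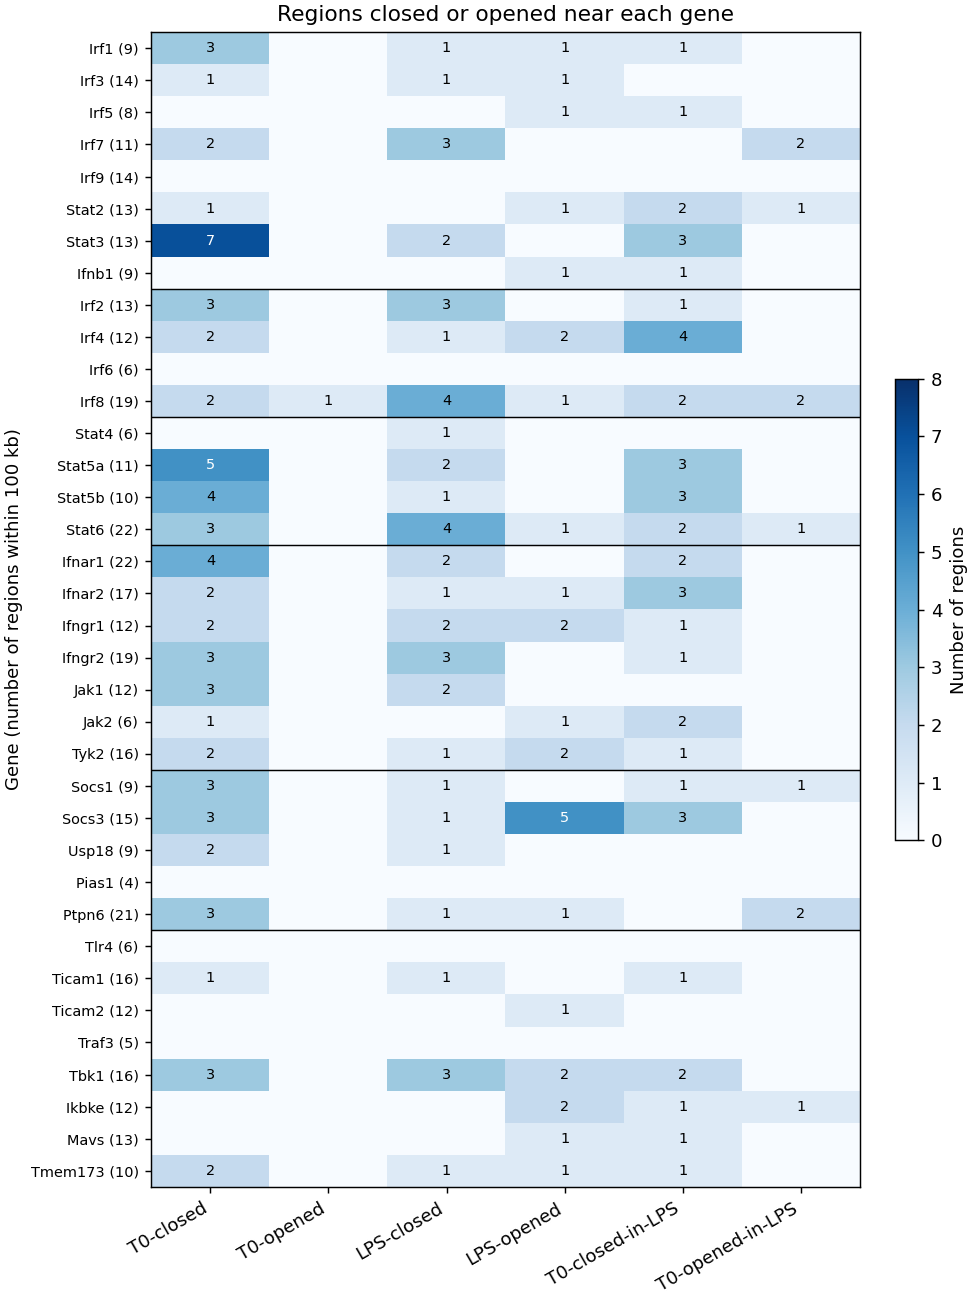
Number of regions called closed or opened (columns) within 100 kb of each of the 8 genes (top block) and of 28 other genes of the pathway (lower blocks, by family), with the number of regions per gene in parentheses. Stat3 had 7 T0-closed regions, the highest number in the plot. Stat5a had 5 among its 11 regions and Stat5b 4 among its 10, and their windows overlap that of Stat3. Of all regions with a Veh peak, 18.1% were T0-closed. Socs3 had 5 LPS-opened regions among its 15, against 6.14% of all regions with an LPS peak. These counts are from the full lists, and the order of genes at equal list length was not tested.

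Regions present in both lists of a pair were compared by percentile. From Veh to T0 the median difference was -5.06 points over 71 regions, against -5.58 points over all regions. Of the 71, 20 stood at least 10 points lower (28.2%, background 34.1%) and 2 at least 10 points higher (2.82%, background 2.01%). From Veh to LPS the median was -1.58 points over 78 regions, against -2.01. Here 19 were lower by 10 points (24.4%, background 25.2%) and 4 higher (5.13%, background 11.4%). From LPS to T0-LPS it was -1.08 points over 75 regions, against -1.76, with 14 lower (18.7%, background 19.3%) and 9 higher (12.0%, background 7.36%). A list without many weak peaks gives the same region a lower percentile. Ranked only among the regions present in all 4 lists, the medians over 69 regions turned positive, at 1.61, 0.513 and 1.68 points, against 0.130, 0.0738 and 0.0586 over all such regions. The sign of the median thus depended on the ranking.

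**Figure D4:**
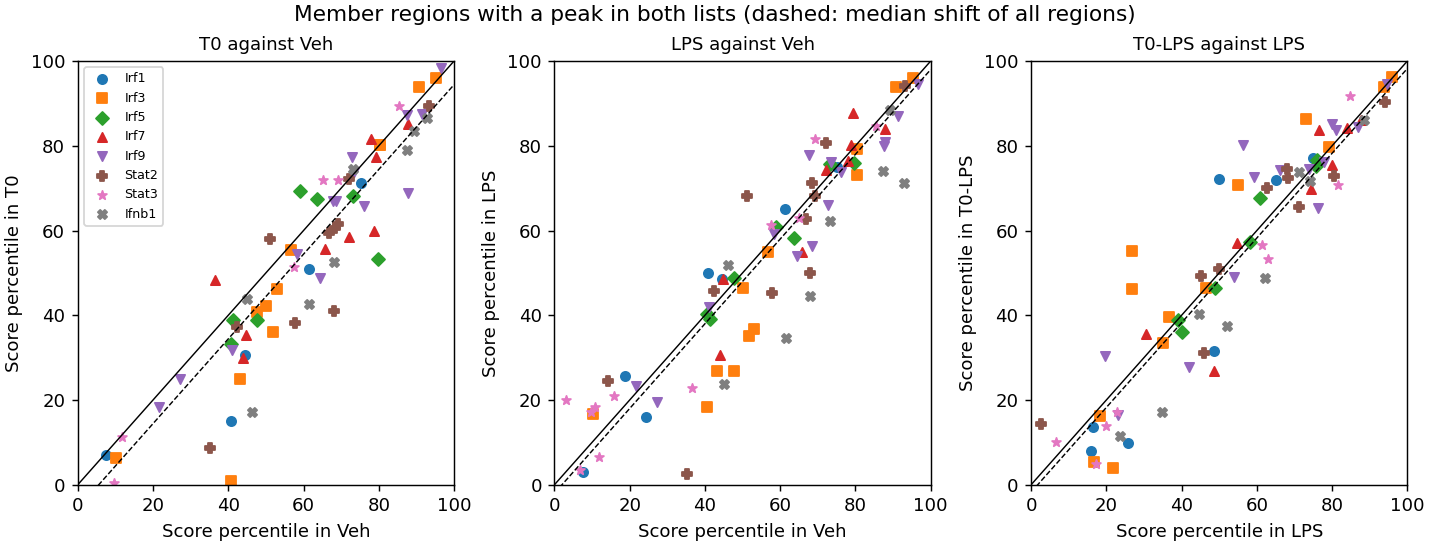
Score percentile of each region in 2 lists, for T0 against Veh, LPS against Veh and T0-LPS against LPS; points are regions with a peak in both lists, marked by gene, the solid line is equality and the dashed line the median shift of all regions. Most points lie near the dashed line, and the points farthest below it include Irf3 (+84976 bp, 40.7 to 0.942) in T0 and Stat2 (+51932 bp, 35.1 to 2.51) in LPS.

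The Ifnb1 downstream block, chosen after its values were seen, kept its difference when ranked only among regions present in all 4 lists. Of all such regions, 19.0% stood at least 10 points lower in LPS than in Veh under this ranking. There the region at +72487 bp stood at 90.4 in Veh and 64.5 in LPS, and the one at +63871 bp at 48.9 and 21.8. Those at +90081, +83831 and +82864 bp were lower in LPS by 24.7, 16.3 and 10.8 points. The region at +6959 bp, by contrast, was at 29.1 in Veh and 41.2 in LPS.

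The central 200 bp of the 91 regions were searched for motifs on both strands. ISRE matched in 6 regions (6.59%, interval 3.06 to 13.6%), against 3.79% of all regions, and GAS in 8 (8.79%, interval 4.52 to 16.4%), against 5.51%. NF-kB matched in 7 (7.69%), against 7.07%. AP-1 (TGACTCA) matched in 4 (4.40%, interval 1.72 to 10.8%), against 13.4%, and PU.1 (GAGGAAGT) in 3 (3.30%), against 8.55%. The nuclear receptor half-site AGGTCA was found in 6 (6.59%), against 11.9%, and its direct repeat with a spacer of 4 bases (DR4), allowing 2 mismatches, in none, against 1.94%. The ISRE matches were at Irf1 (-6968 and +89239 bp), Stat2 (+74524 bp), Stat3 (-55332 bp) and Ifnb1 (+6959 and -27609 bp). The 91 regions held a larger share near coding starts than all regions (above), and the part of this in the motif shares was not tested.

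In RefSeq's promoter table for GRCm38, from 250 bases before to 50 after each start, all 8 genes were found among 32841 entries. An ISRE match was present at Stat2 (3.44% of all promoters), GAS at Irf1 (8.30%), and NF-kB at Irf1 and Ifnb1 (8.46%). The half-site was present at Irf9 (16.3%) and the DR4 form at Irf3 and Irf9 (3.02%). No promoter of the 8 held AP-1 (5.20%) or PU.1 (3.20%). These matches say nothing of binding.

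The other genes of the pathway, 28 in number, had 315 regions, of which 225 were in all 4 lists. T0-closed were 44 of 289 (15.2%, against 18.1% of all regions) near 20 genes, and T0-opened 1 of 246, against 0.729%. LPS-closed were 32 of 289 (11.1%, against 13.0%) and LPS-opened 23 of 280 (8.21%, against 6.14%) near 14 genes. T0-closed-in-LPS were 30 of 280 (10.7%, against 9.97%) and T0-opened-in-LPS 7 of 257 (2.72%, against 3.37%). By family, T0-closed shares ran from 7.32% for inducers of interferon beta (6 of 82) to 21.6% for the inhibitors (11 of 51), with other IRFs at 15.2%, receptors and kinases at 16.7% and other STATs at 21.1%. These family shares lie on both sides of the 18.1% of all regions. The single T0-opened region was at Irf8, a macrophage lineage factor. Irf8 also had 4 LPS-closed regions among its 19, and Stat6 had 4 among 22, against 13.0% of all regions with a Veh peak. Socs3, the STAT3 feedback inhibitor, had 5 LPS-opened regions of 15, against 6.14% of all regions with an LPS peak. Its promoter region was at percentile 39.5 (Veh), 2.00 (T0), 65.0 (LPS) and 72.1 (T0-LPS).

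Presence of a region within 1 kb of the TSS differed between lists at 4 of these genes. At Ikbke, which encodes IKK-epsilon, such a region was in LPS alone, at percentile 0.152, the same pattern as at Irf5 and Ifnb1. At Tmem173, which encodes STING, it was at 6.14 in Veh and 1.48 in LPS and missing with T0 in both states. Socs1 and Tbk1 had 3 such regions each, and the highest percentile among them was taken in each list. It was 37.3, 25.0, 37.1 and 32.7 for Socs1 and 52.0, 63.1, 55.6 and 49.8 for Tbk1. By the sum of absolute differences over the 4 percentiles, the promoter region most like that of Irf3 was that of Stat6 (sum 5.91), among 22 pathway genes with one in every list. For Stat3 it was Ifnar1 (8.76), for Stat2 Mavs (8.92), for Irf9 Ifngr2 (22.7) and for Irf1 Ifnar2 (29.0).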

How the data were processed

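ATAC-seq was measured in 16 libraries, 4 per group. Per the methods and the submitters' processing notes, the authors trimmed adaptors with cutadapt, aligned with Bowtie2 to mm10 (GRCm38), removed duplicates with SAMtools, ran MACS2 (q threshold 0.001) on pooled libraries, 4 per group, and kept peaks at H3K27ac- or H3K4me2-marked macrophage enhancers of other datasets. Bedtools served for overlaps, with enhancers among others. The deposited score of each peak is the authors' peak caller score and grows with depth, so it was ranked within a list only. Depth per library was not used here and is unknown, intervals cover counting error only, and no value has a replicate check.

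Here, peaks of the 4 lists that overlapped by at least 1 bp were merged, and regions were assigned to genes by midpoint within 100 kb of the 5′ end of the GENCODE vM21 gene record. A region took the highest-scoring peak of each list, and its percentile among all peaks of that list with ties at mid rank. A difference of at least 10 points was counted. Peak numbers rose along each chromosome in every list, and numbers were missing between 27.2% (Veh), 22.0% (T0), 24.6% (LPS) and 22.6% (T0-LPS) of neighbouring peaks. Motifs were read as consensus letters. The text names the 8 genes, for each the region nearest the TSS, every region whose presence differed, and the largest differences over all 8. It names, of the 28 pathway genes, those whose promoter presence differed, some of those leading a count, and the closest promoter region in percentiles. Of the pathway list, 1 gene is not reported here. Other regions named were chosen after their values were seen. The members and lists were chosen with earlier results of these data known. The window, TSS, overlap, score minimum, list length and ranking were varied. The tools were Python 3.11.15, numpy 2.4.6, pandas 2.3.3, statsmodels 0.14.6, pysam 0.24.0 and matplotlib 3.10.9, and the counting was tested on simulated lists.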

Additional observations from a re-analysis of the deposited data

Results flagged for a closer look

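At 3 regions present in all 4 lists, T0 went with a lower percentile without LPS and a higher one with LPS, by at least 10 points each way. At the start of Gm12216, 89239 bp downstream of Irf1, the T0 minus Veh difference was -25.7 points and the T0-LPS minus LPS difference 22.2 points. In the Cpt1c exon at -27197 bp from Irf3 they were -18.1 and 19.3 points, and at the start of Cnpy2, 51932 bp downstream of Stat2, -26.4 and 11.7 points. Each difference was not tested, since each list is 1 pooled value. Opposite shifts of this size were found in 882 of 26439 regions (3.34%) and in 3 of 69 near the 8 genes. Ranked only among regions present in all 4 lists, the Irf1 region differed by -12.9 and 28.7 points, the Irf3 region by -6.97 and 24.1 points, and the Stat2 region by -11.3 and 7.09 points.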

How the results depend on the processing

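No paired analysis was possible because peaks were called on the 4 libraries of a group together, and for the same reason no replicate could be left out. Over the other settings, 15 counts moved by more than 1.5 times, 4 medians reversed, and 26 counts and medians did neither, although a score of at least 200 brought the T0-LPS minus LPS median to -0.0084 points. A 50 kb window left 47 regions, 8 T0-closed, 4 LPS-closed, and a T0-LPS minus LPS median of 0.269 points, the reverse of the main sign. With lists shortened to equal length, 5 of 72 regions were T0-closed, 4 of 71 T0-opened, 4 of 72 LPS-closed and 9 of 77 LPS-opened. T0-closed-in-LPS were 5 of 77 and T0-opened-in-LPS 5 of 77. With a score of at least 200, 1 of 67 regions was T0-closed and 1 of 67 LPS-closed. LPS-opened were then 0 of 59, T0-closed-in-LPS 0 of 59 and T0-opened-in-LPS 0 of 56. Shares over all regions were not available for the counts at these settings. A reciprocal overlap of 50% gave 5 T0-opened regions. Percentiles among regions in all 4 lists reversed the medians to 1.61 (T0 minus Veh), 0.513 (LPS minus Veh) and 1.68 points (T0-LPS minus LPS). The cause was not tested. Searching whole regions raised the motif counts, given here beside the share of all regions. ISRE rose to 11 (12.1%, against 7.16%), GAS to 16 (17.6%, against 11.9%) and NF-kB to 15 (16.5%, against 14.2%). AP-1 rose to 7 (7.69%, against 19.1%) and PU.1 to 6 (6.59%, against 12.3%). The half-site rose to 12 (13.2%, against 23.6%) and DR4 to 3 (3.30%, against 4.47%). The calls rest on weak peaks, near the detection limit of lists of unknown depth.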
